A study of Sus scrofa with 63 samples.

Results

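Signalling genes of the intestinal villus, among them 4 ligands of the bone morphogenetic protein (BMP) family, both hedgehog ligands of the gut and their receptor and reporters, were followed in the jejunum of pig fetuses in late gestation. The list was BMP2, BMP4, BMP5, BMP7, IHH, SHH, PTCH1, GLI1, GREM1 and FOXL1, and a gene was represented by every probe of the array whose gene name was its symbol. Under this rule 5 of the 10 genes had a probe, among 45222 distinct gene names on the array. They had 12 probes of the 60305 on the array outside the controls, of which BMP2 had 1, BMP4 had 3, BMP5 had 1, BMP7 had 2 and IHH had 5. No probe carried the names SHH, PTCH1, GLI1, GREM1 or FOXL1, so SHH, GREM1 and FOXL1 are not analysed here. For PTCH1 and GLI1, 3 probes tied to them by the description or annotation of the array rather than by a gene name are described apart from the 12, with 1 such probe of BMP2.

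The samples were the middle segment of the jejunum of 63 male fetuses, each hybridised to a 1-colour Agilent array. Large White (LW) and Meishan (MS) sows were inseminated with mixed semen of both breeds, so that a litter could hold purebred and crossbred fetuses. LWMS fetuses had an LW sire and an MS sow, and MSLW fetuses had an MS sire and an LW sow. At gestational day 90 there were 9 LW, 6 MS, 9 LWMS and 8 MSLW fetuses, and at day 110 there were 9 LW, 7 MS, 9 LWMS and 6 MSLW fetuses. The 2 breeds differ in the maturity and survival of their newborns, and the study compared the days, the genotypes and the breed of each parent. Nothing was given to the animals to make the groups. The labels do not say which fetuses shared a sow, so litter mates were treated as independent and the p-values may be too small.

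Hedgehog ligands are made by the gut epithelium and act on the mesenchyme below it. There they bind the receptor PTCH1 and release Smoothened (SMO), which lets GLI factors switch on target genes that include PTCH1 and GLI1 themselves. BMPs are secreted ligands, many of them mesenchymal in the gut, that act through paired receptors and SMAD proteins. They restrain the proliferating epithelium at the base of the villi, while Noggin (NOG) and Gremlin bind and block them.

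The probes of IHH and BMP4 are shown because those 2 genes carry the changes with age, and those of BMP7 because its 2 probes differ. All are 60 bases long, and the sequences are those in the array files, printed in lower case. IHH probe O4493 and IHH probe A_72_P251932 share 1 sequence and are therefore 1 measurement made at 2 places. Its last 30 bases hold the polyadenylation hexamer in capitals, a word found in 6185 of the 60305 probes (10.3%):
IHH probe O4493, last 30 bases: ttggtcttttcttccttttgtAATAAAaat
IHH probe A_72_P245677: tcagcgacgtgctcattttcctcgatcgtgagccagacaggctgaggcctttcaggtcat
BMP4 probe O1035, with the last stop triplet in capitals: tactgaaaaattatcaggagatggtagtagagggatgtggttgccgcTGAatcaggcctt
BMP4 probe A_72_P440801: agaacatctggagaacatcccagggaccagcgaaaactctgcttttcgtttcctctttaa
BMP4 probe A_72_P661557, with the start triplet in capitals: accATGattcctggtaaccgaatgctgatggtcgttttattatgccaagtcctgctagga
BMP7 probe O6316, last 30 bases, with the start triplet in capitals: cgcgtagagccggcgcgATGcaagtgcgct
BMP7 probe A_72_P165626: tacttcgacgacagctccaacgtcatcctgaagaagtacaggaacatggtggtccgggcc
Apart from that pair, no member probe was identical to another, so the 3 BMP4 probes read 3 separate stretches. The triplets were found as letters in these windows and were not matched to a genome. BMP7 probe O6316 was 76.7% G and C.

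In the RefSeq annotation of Sscrofa11.1, BMP4 lies on chr1:183415989-183422888, IHH on chr15:121083750-121090548, BMP5 on chr7:25344924-25468430, BMP2 on chr17:15750487-15762982 and BMP7 on the same chromosome at chr17:57567770-57676516. These are gene bounds only, and the exon or UTR that each probe reads is not given here.

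All 12 member probes passed the filter on dim probes and were tested among 40515 probes with limma. Of the 12, 10 were well above background on all 63 arrays, BMP7 probe O6316 was on 59 and IHH probe A_72_P676774 on 55. Over the series, 51.2% to 87.6% of probes per array were well above background (median 66.7%). A level below is log2 of the processed signal minus the array's 75th percentile of that signal, so that 0 is a signal at that percentile. Levels compare samples within a probe and not 1 probe with another. Fibroblast, smooth muscle and epithelial markers had summed levels of 2.07 to 3.79, 4.32 to 5.75 and 3.81 to 4.87 over the 63 fetuses, where the summed level is the mean over the marker genes of a list. A few fetuses stood apart and are returned to below, MS fetus 632 at day 110, MSLW fetus 450 at day 90 and LW fetus 852 at day 110.

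IHH, BMP4 and BMP5 changed between day 90 and day 110 when averaged over the 4 genotypes. IHH fell by about 0.48 and BMP4 by about 0.32 on the log2 scale by their brightest probes, and BMP5 rose by 0.29. The member probes of BMP2 and BMP7 did not pass the test. Of the 12 probes 7 passed the adjusted p limit of 0.01, beside 28.5% of all probes tested. The 7 calls were 3 probes each of IHH and BMP4 and the single probe of BMP5.

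IHH encodes Indian hedgehog, the hedgehog ligand of the differentiating intestinal epithelium. By probe O4493 its level in LW fetuses ran from 3.57 to 4.01 at day 90 (median 3.79) and from 2.77 to 3.98 at day 110 (median 3.26). In MS fetuses it ran from 3.75 to 4.37 (median 3.84) and then from 2.77 to 5.11 (median 3.32). In LWMS fetuses the range was 3.68 to 4.24 at day 90 (median 4.10) and 2.77 to 3.71 at day 110 (median 3.52). The groups overlapped in every genotype, but most day 110 fetuses lay under the day 90 fetuses of their own genotype. MSLW fetuses went from 3.66 to 4.31 (median 4.06) to 3.14 to 3.78 (median 3.56). In all, 23 of 31 fetuses at day 110 were below every day 90 fetus of their genotype, 7 of 9 in LW, 5 of 7 in MS, 7 of 9 in LWMS and 4 of 6 in MSLW. A single fetus, MS fetus 632, was above all of them. The day 90 mean was 3.94 ± 0.20 (SD, n = 32) and the day 110 mean 3.44 ± 0.45 (SD, n = 31).

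**Figure D1:**
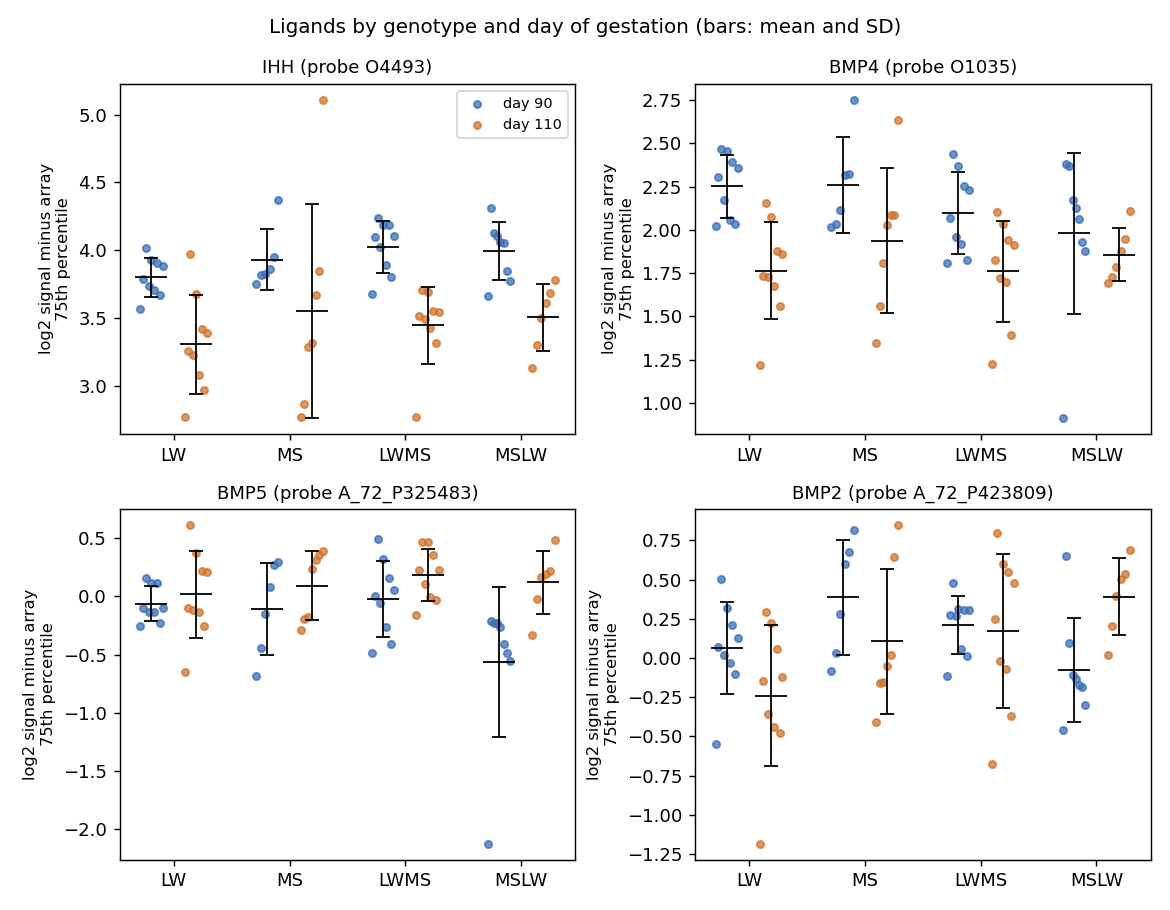
Levels of the member genes by genotype and gestational day, 1 point per fetus, as log2 signal minus the array's 75th percentile, with bars for the mean and SD. IHH and BMP4 points at day 110 sit mostly under those at day 90, and MS fetus 632 at day 110 stands alone at 5.11 in IHH.

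The change of IHH with age was -0.48 (SE 0.09, 95% interval -0.66 to -0.30) in the limma fit, a 1.40-fold lower signal at day 110 (adjusted p = 1.52e-05). The second copy of that sequence gave -0.50 (SE 0.09). Probe A_72_P245677, an independent sequence, gave -0.71 (SE 0.11, interval -0.94 to -0.48, adjusted p = 9.47e-07), or 1.64-fold. Its day 110 values were below every day 90 value of the same genotype in 19 of 31 fetuses. Probes A_72_P661351 and A_72_P676774 moved the same way by -0.35 and -0.32 but did not pass the threshold (adjusted p = 0.0167 and 0.0891). Each of the 8 array slides held fetuses of both days. Within slides the difference in O4493 was negative on 8 of 8, with a median of -0.51.

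BMP4 is the BMP ligand of the mesenchyme under the villus epithelium and a known hedgehog target in the gut. By probe O1035 its level in LW fetuses was 2.02 to 2.47 at day 90 (median 2.31) and 1.22 to 2.15 at day 110 (median 1.73). In MS fetuses it was 2.02 to 2.75 (median 2.21) and 1.34 to 2.64 (median 2.02). The LW days were nearly separate, with 7 of 9 day 110 fetuses below all LW day 90 fetuses, and the MS days overlapped more, with 3 of 7. In LWMS fetuses the level was 1.81 to 2.44 (median 2.07) and then 1.22 to 2.10 (median 1.82). In MSLW fetuses it was 0.91 to 2.38 (median 2.09) and 1.69 to 2.11 (median 1.83). The low MSLW value at day 90 is fetus 450, the lowest of all 63 in each BMP4 probe, and because of it no MSLW fetus at day 110 was below all of its day 90 group.

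The fall of BMP4 by O1035 was -0.32 (SE 0.08, interval -0.47 to -0.16, adjusted p = 0.000942), or 1.25-fold. The other BMP4 probes fell further, A_72_P440801 by 0.60 (SE 0.11, adjusted p = 1.2e-05) and A_72_P661557 by 0.51 (SE 0.10, adjusted p = 1.69e-05). In LWMS fetuses A_72_P661557 ran from -2.22 to -1.79 at day 90 and from -3.27 to -2.25 at day 110, so that its days did not overlap. Over all genotypes 31 of 31 day 110 fetuses were below the day 90 median of their genotype in that probe. Within slides O1035 was lower at day 110 on 8 of 8 slides. Centred on the array median in place of the 75th percentile, O1035 changed by -0.27 and was no longer called (adjusted p = 0.0335).

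BMP5, a ligand close to BMP7 in sequence, rose with age. Probe A_72_P325483 ran in MSLW fetuses from -2.12 to -0.21 at day 90 (median -0.34) and from -0.33 to 0.49 at day 110 (median 0.18). In LWMS fetuses it ran from -0.49 to 0.49 (median 0.01) and then from -0.16 to 0.47 (median 0.23). In LW fetuses the medians were -0.10 on both days, and in MS fetuses -0.04 and 0.24. The days overlapped in every genotype, and 12 of 31 day 110 fetuses were above all day 90 fetuses of their genotype while 2 were below. The averaged rise was 0.29 (SE 0.09, interval 0.11 to 0.48, adjusted p = 0.00932), or 1.22-fold, and was positive within 7 of 8 slides. This call lay close to the threshold and was lost with median centring (adjusted p = 0.0141), without the filter on dim probes (0.015), with slide as a block (0.0144), without LW fetuses 484 and 469 (0.0108) and without LW fetus 852 (0.0123).

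The member probes of BMP2 and BMP7 showed no difference with age that passed the test. BMP2, a ligand found in epithelium and mesenchyme, changed by -0.04 (SE 0.09, interval -0.23 to 0.15, adjusted p = 0.782). Its medians went from 0.07 to -0.14 in LW, from 0.44 to -0.05 in MS, from 0.27 to 0.25 in LWMS and from -0.15 to 0.45 in MSLW fetuses. The genotypes thus moved in different directions, but the test of genotype by age for BMP2 gave an unadjusted p of 0.0248 and an adjusted p of 0.571. BMP7 probe A_72_P165626 changed by -0.02 (SE 0.14, interval -0.31 to 0.26, adjusted p = 0.914). Its day 110 levels spread wider than its day 90 levels in LW, MS and LWMS fetuses, with SDs of 0.55, 0.91 and 0.73 after 0.27, 0.25 and 0.15. In MSLW fetuses, which include fetus 450 at day 90, the SD went the other way, from 0.75 to 0.37. The probe annotated to BMP2 by the study only, A_72_P340773, fell by 0.45 on average (SE 0.14, adjusted p = 0.00744). It was called in LW at -1.07 (adjusted p = 0.00321), where 5 of 9 day 110 fetuses were well above background, and was at -0.66 in MS, -0.19 in LWMS and 0.11 in MSLW, none of them called.

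**Figure D2:**
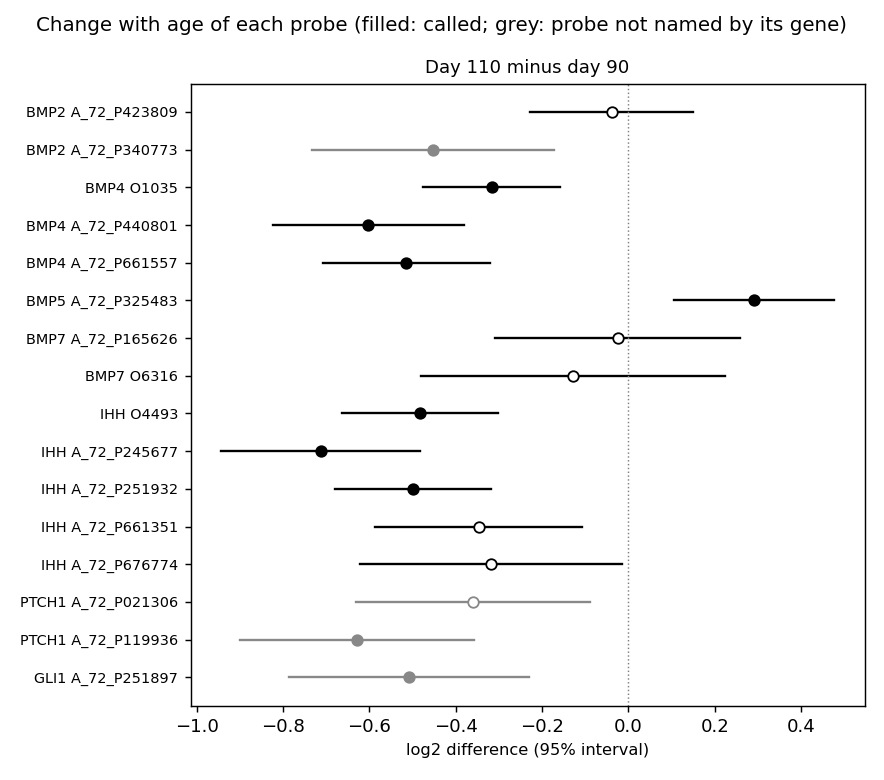
Change from day 90 to day 110 for each probe, averaged over the 4 genotypes, as the log2 difference with its 95% interval. IHH and BMP4 lie to the lower side of 0 and BMP5 to the higher side. The intervals of BMP7 and of BMP2 A_72_P423809 include 0, and that of BMP2 A_72_P340773 lies below 0.

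Within single genotypes the calls required an adjusted p of at most 0.01 and a change of at least 0.5 on the log2 scale. In LWMS fetuses 4 of 12 member probes were called, beside 9.86% of all probes, all of them lower at day 110. These were BMP4 A_72_P440801 (-0.80, SE 0.20, adjusted p = 0.00272) and A_72_P661557 (-0.74, SE 0.18, adjusted p = 0.00157), and IHH O4493 (-0.58, SE 0.17, adjusted p = 0.00912) and A_72_P245677 (-0.97, SE 0.21, adjusted p = 0.000531). The O4493 sequence in A_72_P251932 was not called in LWMS fetuses. It was called with the authors' log2 values, quantile normalization or array weights, or without fetus 632, 450 or both. The O4493 call was lost with median centring and without the filter on dim probes. Median centring also lost both BMP4 calls, and quantile normalization lost that of A_72_P661557. In LW fetuses 1 of 12 was called, beside 4.76% of all probes, BMP4 A_72_P440801 at -0.82 (SE 0.20, adjusted p = 0.00363). That call was lost without LW fetuses 484 and 469 (-0.80, adjusted p = 0.011). IHH O4493 changed by -0.49 in LW with an adjusted p of 0.0439.

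In MS fetuses 0 of 12 member probes were called by limma, beside 3.12% of all probes, and in MSLW fetuses 0 of 12, beside 5.43%. IHH O4493 differed by -0.38 in MS (adjusted p = 0.267) and by -0.49 in MSLW (adjusted p = 0.0827). MSLW fetuses had the widest BMP5 difference, 0.68 (SE 0.20, adjusted p = 0.0139), which also missed the threshold. Its day 90 group holds fetus 450, at -2.12 where the others lay between -0.56 and -0.21. With the authors' log2 values this difference was called. At an unadjusted p under 0.05, 8297 and 10313 probes of all those tested passed in MS and MSLW fetuses.

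The missing calls did not show that the genotypes differ in their change. The test of genotype by age called 0 of 12 member probes, beside 0.0222% of all probes, and its adjusted p was at least 0.536 for every member probe. The change of IHH O4493 in MS minus that in LW was 0.11 (interval -0.40 to 0.63), and that of BMP4 O1035 was 0.16 (interval -0.29 to 0.62). Those intervals are wider than the averaged changes themselves. Over all differences between the 8 groups, 5 of 12 member probes passed the same limit, beside 28.7% of all probes. They were 2 BMP4 probes and 3 IHH probes, 2 of which share 1 sequence.

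MS fetus 632 decided the MS call for 1 of the 4 IHH sequences. Its O4493 level was 5.11, where the other 6 MS fetuses at day 110 lay between 2.77 and 3.85, and it was the highest of 63 in 4 of the 5 IHH probes. Without it the MS change of O4493 was -0.64 (SE 0.16, adjusted p = 0.00633), and that of the same sequence in A_72_P251932 was -0.69 (adjusted p = 0.0032), both past the threshold. The other IHH probes stayed uncalled in MS without it, A_72_P245677 at -0.80 (adjusted p = 0.0321), A_72_P661351 at -0.56 and A_72_P676774 at -0.65. The averaged change of O4493 became -0.55 (adjusted p = 5.98e-09), and IHH A_72_P661351 was called at -0.39 (adjusted p = 0.00506).

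The same fetus had the lowest enterocyte level of all 63. The list of enterocyte markers had 8 genes, 5 of them with a probe, among them LCT, ALPI and SI, the brush border lactase, alkaline phosphatase and sucrase-isomaltase. Its summed level was 0.78 to 2.87 at day 90 (median 1.66) and -1.98 to 4.26 at day 110 (median 3.18). Fetus 632 was at -1.98, below every day 90 fetus, where its group otherwise ran from 1.38 to 4.26. LW fetus 575, the second lowest at -0.45, was the lowest of 63 in 4 IHH probes. Fetus 632 was also the highest of 63 in the fibroblast markers, at 3.79, and in those of enteric neurons and glia, at 0.79. In the epithelial markers fetus 632 was at 4.81, rank 62 of 63 from the lowest, and fetus 575 at 4.11, rank 10. The levels of fetus 632 in the liver markers, at -3.91, and in the 1 tested pancreas marker, at -6.58, were the lowest of 63. Whether the makeup of these 2 samples has a part in their IHH values was not tested.

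**Figure D3:**
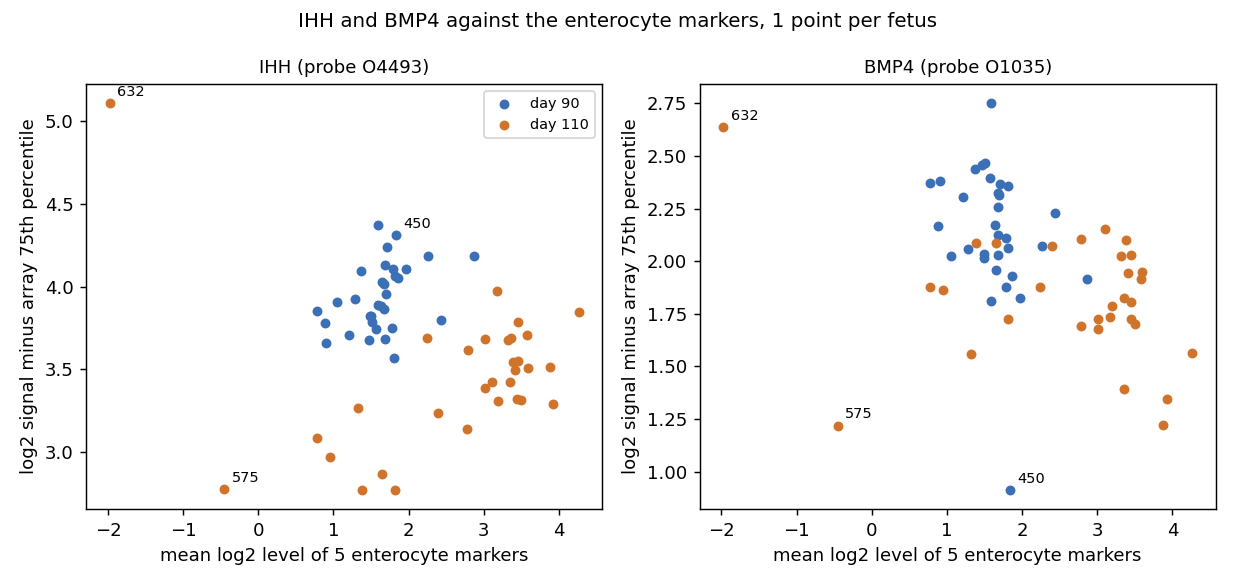
IHH level (probe O4493, log2 signal minus the array's 75th percentile) against the mean level of 5 enterocyte marker genes, 1 point per fetus with the day in colour. MS fetus 632 lies alone at an IHH level of 5.11 and an enterocyte level of -1.98, and LW fetus 575 lies at an enterocyte level of -0.45 with a low IHH level.

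Over the list, LCT rose by 1.37 and ALPI by 2.47, while aminopeptidase N (ANPEP) fell by 0.59 and FABP2 differed by 0.13 without passing the test. SI was called higher too, but its probe was well above background on 24 of 63 arrays only and the size of its difference is not given. Of 5 epithelial markers 3 rose and 1 fell, with a median difference of 0.26. Of 7 fibroblast markers 5 fell and none rose, with a median of -0.36, and their summed level went from a day 90 range of 2.54 to 3.72 to a day 110 range of 2.07 to 3.79. Of 6 smooth muscle markers 1 fell, with a median of -0.18. Of 6 markers of enteric neurons and glia 2 fell (median -0.27), of 4 liver markers 2 fell (median -0.90), and of 6 leukocyte markers 3 rose (median 0.34). Of 5 endothelial markers 0 were called (median -0.13). Over all 40515 probes tested 28.5% were called with age, 5113 higher and 6432 lower. The counts for smooth muscle, enteric neurons and glia, and endothelium were near or under that share and set those lists little apart. The medians of the lists differed in direction with age, and the part of the lists in the changes of IHH, BMP4 and BMP5 was not tested. In whole tissue, fewer cells of a type and less RNA per cell cannot be told apart.

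MSLW fetus 450 was the lowest of 63 in all 3 BMP4 probes, with O1035 at 0.91 where the other MSLW fetuses at day 90 lay between 1.88 and 2.38. It was also at -2.12 in BMP5 (others -0.56 to -0.21) and at -3.64 in BMP7 A_72_P165626 (others -1.92 to -1.28), yet its IHH level of 4.31 was among the highest. Its smooth muscle level of 5.75 was the highest of 63, and its leukocyte level of -2.36 the lowest. It was also below its group in the endothelial markers, at 0.15 (others 0.37 to 1.38), and in the villus mesenchyme genes, at -2.84 (others -2.63 to -2.28). Its fibroblast level of 2.81 was within the range of the others. Whether the makeup of its sample has a part in these values was not tested. Without fetus 450 the BMP4 fall was -0.35 by O1035 (adjusted p = 4.25e-05) and -0.58 by A_72_P661557 (adjusted p = 1.73e-09). A_72_P661557 was then called in MSLW fetuses as well (-0.58, SE 0.15, adjusted p = 0.00849), and in LW fetuses (-0.56, adjusted p = 0.00214). The rise of BMP5 became 0.24 and stayed past the threshold (adjusted p = 0.00954). Without both fetuses the changes were -0.54 for IHH O4493, -0.38 for BMP4 O1035 and 0.25 for BMP5, all called.

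PTCH1 is the hedgehog receptor and GLI1 a transcription factor that serves as the usual readout of the pathway. No gene name on the array was theirs, but probe A_72_P021306 was described as a patched homolog 1, probe A_72_P251897 as GLI1-like, and A_72_P119936 was annotated to PTCH1 by the study. The GLI1-like probe fell by 0.51 with age (SE 0.14, adjusted p = 0.00243), or 1.42-fold, and A_72_P119936 by 0.63 (SE 0.14, adjusted p = 0.000148). A_72_P119936 was dim, well above background in 30 of 32 fetuses at day 90 and 23 of 31 at day 110. In LW fetuses at day 110 it was so in 5 of 9, and in MSLW fetuses in 4 of 6. Probe A_72_P021306 differed by -0.36 (SE 0.14, adjusted p = 0.0292) and was not called. Without fetus 450, which was the lowest of 63 in it at -3.94, the difference was -0.43 and was called (adjusted p = 0.00352).

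The GLI1-like probe ran in LWMS fetuses from -0.87 to -0.24 at day 90 (median -0.57) and from -2.24 to -0.78 at day 110 (median -1.19). In MSLW fetuses it ran from -2.55 to 0.56 (median 0.13) and then from -1.39 to -0.42 (median -0.66). In LW fetuses the medians were -0.19 and -0.61, and in MS fetuses -0.56 and -1.12. The day 110 median was lower in each genotype and the ranges overlapped in all 4.

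The other genes of the hedgehog pathway were taken from a list of 17, of which 11 had a probe and 9 were tested. None rose with age and 5 fell, beside the 28.5% of all probes called (6432 of the 40515 probes were called lower). The median difference was -0.47, beside -0.02 over all probes tested. The fibroblast markers fell alongside this pathway of the mesenchyme (5 of 7, median -0.36), and their part in it was not tested. SMO, the signal transducer, fell by 0.57 (adjusted p = 2.35e-05, in 1 of its 2 probes), and GLI2, the main activating GLI factor, by 0.47 (adjusted p = 0.00922, in 1 of 2). HHAT, which adds the palmitate that hedgehog ligands carry, fell by 0.54 (adjusted p = 0.000101). The co-receptor CDON fell by 0.68 (adjusted p = 6.57e-06), and glypican 3 (GPC3), which binds hedgehog at the cell surface, by 0.72 (adjusted p = 2.5e-05, in 2 of 2). HHIP and SUFU, which like GPC3 are among the inhibitors of the pathway, did not pass the test, each at -0.08.

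Of 37 further genes of the BMP pathway 24 had a probe and 23 were tested, of which 6 fell and 2 rose, with a median of -0.13. A share of 8 in 23 genes is near the 28.5% of all probes called, so the count sets the BMP list little apart. Among the ligands BMP3 fell by 0.97 (adjusted p = 6.69e-09). Among secreted antagonists, NOG fell by 0.73 (adjusted p = 6.7e-08, in 2 of 2 probes) and SOSTDC1 by 0.74 (adjusted p = 1.3e-07). The receptors went in both directions. BMPR2, the type II receptor, rose by 0.36 (adjusted p = 3.5e-06, in 3 of 4 probes) and BMPR1A by 0.29 (adjusted p = 0.000251, in 1 of 2), while ACVR2B fell by 0.41 (adjusted p = 0.00222, in 2 of 2). The brighter ACVR2B probe was well above background on 46 of 63 arrays only. The inhibitory SMAD7 fell by 0.39 (adjusted p = 8.7e-06, in 1 of 2). ID2, a target gene of BMP signalling, fell by 0.55 (adjusted p = 2.01e-06) and did so in 6 of 6 probes, but the targets ID1 and ID3 were at -0.11 (adjusted p = 0.319) and -0.07 (adjusted p = 0.65).

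Of 9 genes of the villus mesenchyme 3 were tested. The epithelial ligand PDGFA rose by 0.54 (adjusted p = 1.14e-06), the gut mesenchyme homeobox gene HLX fell by 0.56 (adjusted p = 0.00141), and PDGFRA, the PDGFA receptor of villus cluster cells, was at -0.22 (adjusted p = 0.124).

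The breed of the parents was compared next, with the MS parent minus the LW parent averaged over ages and called at an adjusted p under 0.05. For the sow, 0 of 12 member probes were called by limma, beside 16% of all probes, and 12119 of all probes passed an unadjusted p under 0.05. The difference was 0.09 in IHH O4493 (interval -0.09 to 0.27), 0.05 in BMP4 O1035 (interval -0.11 to 0.21), 0.16 in BMP5 and 0.18 in BMP2 (adjusted p = 0.179). The test of sow breed by age called 0 of 12, beside 0.388% of all probes, with 4407 of all probes at an unadjusted p under 0.05. The nearest to a call for the sow was IHH A_72_P676774, at 0.41 (SE 0.15, adjusted p = 0.0516), and the other 4 IHH probes did not pass either. A_72_P676774 was called with the authors' values (0.33, adjusted p = 0.0126), without fetus 852 (0.43, adjusted p = 0.0393) and with normexp, quantile normalization, median centring or array weights, and was not called without fetus 632 (adjusted p = 0.0718) or with slide as a block (adjusted p = 0.065).

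For the sire 1 of 12 member probes was called, beside 6.95% of all probes. This was BMP7 O6316, 0.71 higher with an MS sire (SE 0.18, interval 0.36 to 1.07, adjusted p = 0.00512), or 1.64-fold. In LW fetuses O6316 ran from -5.20 to -3.26 at day 90 (median -4.19) and from -5.55 to -0.36 at day 110 (median -4.47). In MS fetuses it ran from -3.30 to -2.73 (median -3.07) and from -3.21 to -2.91 (median -3.14). At day 90 LW and MS overlapped only at their edges. At day 110 LW fetus 852, at -0.36, was above every MS fetus, and the next highest LW fetus, at -3.62, was below every one of them.

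In this BMP7 probe the crossbreds lay between, with day 90 medians of -3.60 in LWMS and -3.33 in MSLW and day 110 medians of -3.94 and -3.56. MS minus LW was 1.20 at day 90 (SE 0.36, adjusted p = 0.0307) and 0.99 at day 110 (adjusted p = 0.0542). These missed the threshold, and in the 2 comparisons of the pure breeds 0 of 12 member probes were called, beside 3.58% of all probes at day 90 and 4.99% at day 110, where 7298 and 9422 of all probes passed an unadjusted p under 0.05. Without fetus 852 the spread of O6316 shrank, and MS minus LW was 1.20 at day 90 (SE 0.24, adjusted p = 0.00048) and 1.46 at day 110 (SE 0.24, adjusted p = 1.17e-05), the sire difference was 0.83 (adjusted p = 6.48e-07) and the sow difference was 0.50 (adjusted p = 0.00203), all past their thresholds. With normexp background correction the sire call was lost.

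The other BMP7 probe did not show it. A_72_P165626 differed by -0.26 for the sire (SE 0.14, interval -0.55 to 0.02, adjusted p = 0.309) and by -0.56 for MS minus LW at day 110 (SE 0.28, adjusted p = 0.21). The sire intervals of the 2 probes do not overlap. The breed difference is thus that of a single G and C rich probe, in which 7 of 9 LW fetuses on each day were well above background, and not of the gene by its other probe. Whether the breeds differ in sequence under O6316 was not tested.

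**Figure D4:**
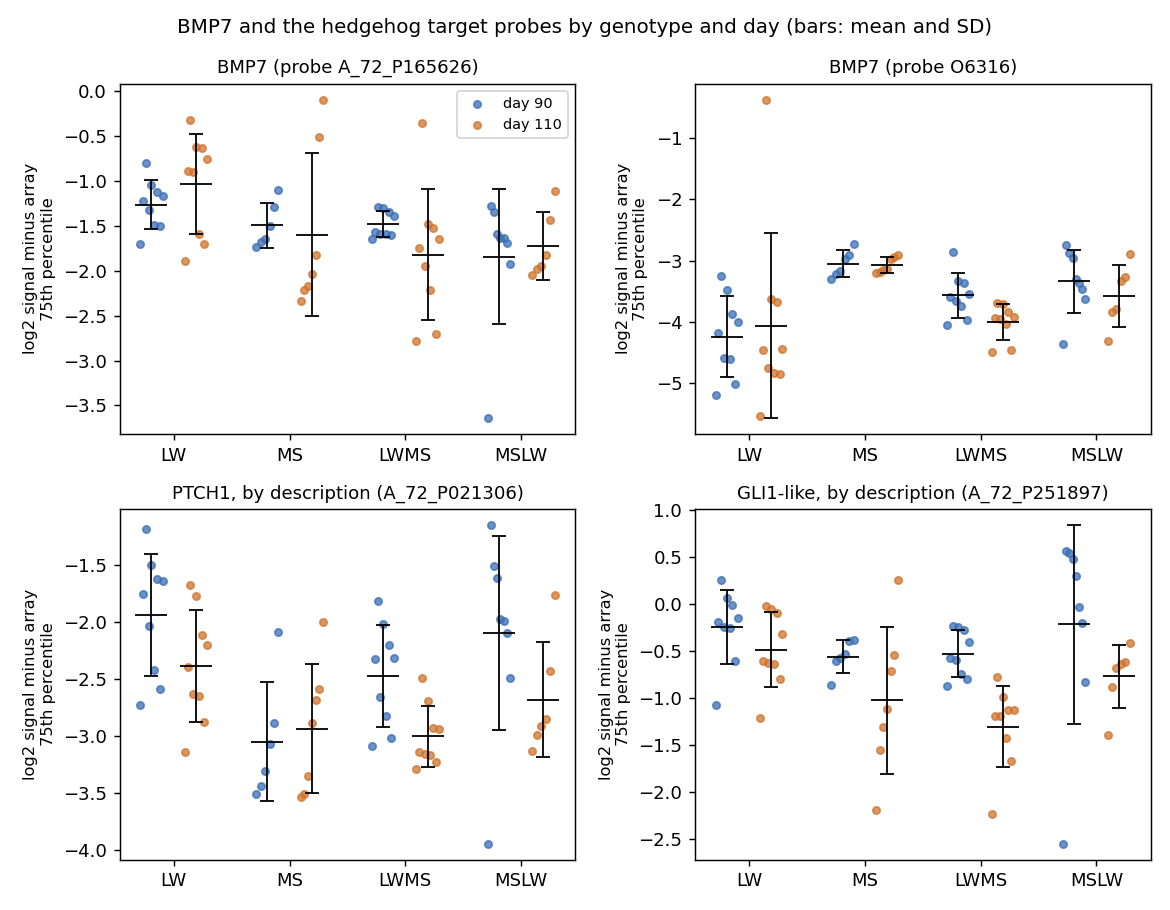
Levels of the 2 BMP7 probes and of the probes described as PTCH1 and GLI1-like by genotype and day, 1 point per fetus, as log2 signal minus the array's 75th percentile, with bars for the mean and SD. In BMP7 O6316 the LW fetuses sit lowest apart from fetus 852 at -0.36, and in the PTCH1 probe MS fetuses at day 90 sit under most LW fetuses.

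**Figure D5:**
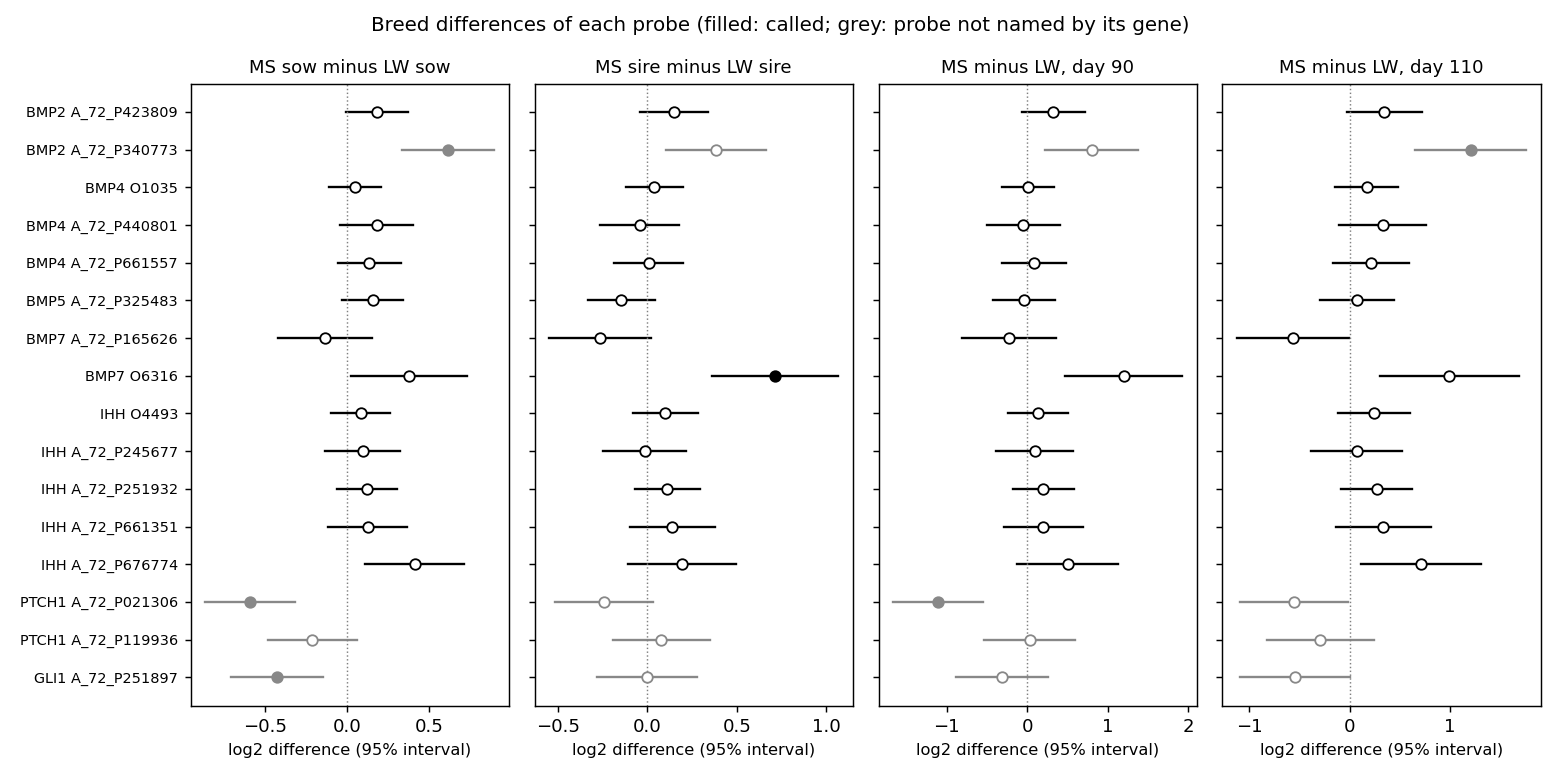
Differences between breeds for each probe as log2 differences with 95% intervals, for the breed of the sow, the breed of the sire and MS minus LW at each day. The intervals of most member probes include 0, and BMP7 O6316 lies on the positive side.

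Among the probes named otherwise, the PTCH1 probe A_72_P021306 was 0.59 lower with an MS sow (SE 0.14, adjusted p = 0.00143), and the difference was negative within 8 of 8 slides. At day 90 it ran from -2.73 to -1.18 in LW fetuses (median -1.75) and from -3.50 to -2.09 in MS fetuses (median -3.19), and MS minus LW was -1.11 (SE 0.28, adjusted p = 0.00668). At day 110 MS minus LW was -0.55 and was not called (adjusted p = 0.197). The second PTCH1 probe, A_72_P119936, was well above background on 53 of 63 arrays only. It differed by -0.21 for the sow and did not pass the test (adjusted p = 0.299), and by 0.03 for MS minus LW at day 90. The probe for GLI1 was 0.42 lower with an MS sow (SE 0.14, adjusted p = 0.0278), within 7 of 8 slides. Without fetuses 632 and 450 these sow differences were -0.69 (adjusted p = 1.42e-05) and -0.56 (adjusted p = 6.83e-05). BMP2 A_72_P340773 was 0.62 higher with an MS sow (SE 0.14, adjusted p = 0.00117), and BMP2 A_72_P423809 was not called. The day 110 means of A_72_P340773 were -4.76 in LW (5 of 9 fetuses well above background) and -3.69 in MSLW, beside -3.61 in LWMS and -3.55 in MS. Its day 90 means were -3.69 in LW and -3.80 in MSLW, beside -3.42 in LWMS and -2.89 in MS. The 2 groups with an LW sow thus differed at day 110.

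No other hedgehog gene of the 9 tested was called for either parent, beside 16% of all probes for the sow and 6.95% for the sire, shares at which a list of 9 may hold no call. In the BMP list the antagonist and modulator BMPER was lower with an MS sow (-0.31, adjusted p = 0.00755) and with an MS sire (-0.33, adjusted p = 0.00765), and so was BMPR1A in 1 of its 2 probes (-0.21 and -0.23), while BMPR2 was higher with an MS sire in 1 of its 4 probes (0.20, adjusted p = 0.0377). PDGFA was 0.26 higher with an MS sow (adjusted p = 0.0317).

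Across the 63 fetuses, 5 pairs of hedgehog and BMP probes were compared by each fetus's deviation from its group mean, with permutation p-values adjusted over the 5. The 2 probes for hedgehog targets moved together, PTCH1 A_72_P021306 and GLI1-like A_72_P251897 (Pearson r = 0.58, adjusted p = 7.5e-05, Spearman rho = 0.47, adjusted p = 0.0005, two-sided permutation test). Leaving out the 2 fetuses farthest from the median gave r = 0.45, removing slide means gave r = 0.53, and leaving out fetuses 632 and 450 gave r = 0.33 (adjusted p = 0.0237). GLI1-like and BMP4 O1035 had r = 0.57 (adjusted p = 7.5e-05) and rho = 0.31 (adjusted p = 0.024), and r = 0.34 without the 2 farthest fetuses. Without fetuses 632 and 450 the latter was 0.27 and missed the threshold (adjusted p = 0.064). PTCH1 and BMP4 had r = 0.36 (adjusted p = 0.00695) and rho = 0.17 (adjusted p = 0.211), and r was 0.18 without the 2 farthest fetuses, so that this relation rested on them. IHH O4493 showed no relation with PTCH1 by the permutation test (r = 0.04, adjusted p = 0.748, rho = -0.04, adjusted p = 0.764). With GLI1-like its r was -0.05 (adjusted p = 0.748) and its rho -0.31 (adjusted p = 0.024), and r was -0.32 without the 2 farthest fetuses but 0.21 with quantile normalization, so that its sign was not settled.

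By pattern over the 63 arrays, the named genes most like IHH O4493 among 9319 were VAV3 (Pearson r = 0.83), GPM6B (r = 0.80) and the carbonic anhydrase CA4 (r = 0.79). These are descriptions over fetuses that share days and genotypes. Taken as deviations from group means the values were 0.85, 0.66 and 0.78, and without fetus 632 the first ones were 0.88, 0.81 and 0.80.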

How the data were processed

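Total RNA of each fetus was labelled with Cy3 and hybridised to an Agilent array. The authors deposited Feature Extraction 10.10.1.1 files, whose processed intensity is already background-corrected, and a table of normalized log2 values (39446 probes). Per the labels limma was used upstream, with its version not given in the sources used here. Here log2 of the deposited intensity minus each array's 75th percentile was taken, with control spots and outlier spots left out. A probe was kept where 75% or more of a group's arrays measured it well above background. limma 3.58.1 in R 4.3.3 fitted 8 group means to 63 arrays (55 residual degrees of freedom), with Benjamini-Hochberg adjustment over 40515 probes. A gene was represented by its brightest tested probe, and further pathway genes were named, from lists, where a test passed or where they are mediators or antagonists of a member. The members and lists were chosen with earlier results of these data known. Pairs were tested with 100000 permutations. The pipeline was tested on simulated data. Alternatives covered background correction, normalization, the dim-probe filter, slide, array weights, the authors' log2 values and left-out fetuses. The study's own model held the sow as a random effect, which was not possible here because the labels do not give the sow. The number of arrays limits the precision, and so does the smaller number of sows.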

Additional observations from a re-analysis of the deposited data

Results flagged for a closer look

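Of 96 groups of 5 to 9 fetuses in the 12 member probes, 10 had a fetus far from all others of its group relative to the group's range, and chance alone gives about 1 in 20. Of the 10, 5 were MSLW fetus 450 at day 90, with BMP4 at 0.912787 (O1035), -2.63756 (A_72_P440801) and -4.15798 (A_72_P661557), BMP5 at -2.12462 and BMP7 A_72_P165626 at -3.63956. BMP7 O6316 was at -0.363018 in LW fetus 852 at day 110, with the nearest fetus at -3.62. LWMS fetus 609 at day 110 was low in the sequence shared by 2 IHH probes, at 2.77063 in O4493 (nearest 3.32) and 2.79858 in A_72_P251932 (nearest 3.36). In MS at day 90, fetus 524 was high in IHH O4493 at 4.37172 (nearest 3.95), and fetus 766 was high in IHH A_72_P661351 at -0.372748 (nearest -0.85).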

How the results depend on the processing

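No paired analysis was possible because the replicate numbers are fetus numbers that no 2 groups share. The averaged falls of IHH and BMP4 kept their direction under every alternative run, and the counts of called member probes were within 1.5 times of those reported except as follows. With array weights, calls of the 12 were 6 with age in LW and 1 in MS, 1 and 2 for MS minus LW at day 90 and day 110, 4 for the sow, 2 for the sire and 12 over all groups. Without LW fetuses 484 and 469 the LW count was 0, without fetus 450 or without fetuses 632 and 450 it was 2. In MS it was 2 without fetus 632 or without both, and in MSLW 1 without fetus 450, without both, or with the authors' values. Median centring gave 1 in LWMS and 3 over all groups. It put the median of all probes at 0.12 for the sow and 0.15 for MS minus LW at day 110, from 0.02 for each. For the sow the authors' values, normexp, quantile normalization and median centring each gave 1, and without fetus 852 it was 2. For the sire normexp gave 0. Without fetus 852 MS minus LW gave 1 at each day.

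Some differences, none of them called as reported, changed sign. BMP2 with age was 0.01191 with median centring. BMP7 with age was 0.02356 (authors' values), 0.0246 (normexp) and 0.02631 (median centring). By probe O6316 in place of A_72_P165626, BMP7 was not near 0 but turned to 0.3804 for the sow and 1.196 and 0.9925 for MS minus LW at the 2 days. BMP4 for the sow was -0.01452 (authors' values), -0.02616 (quantile), -0.03089 (array weights) and -0.01707 (without 632 and 450). BMP4 for MS minus LW at day 90 was -0.065 (authors' values), -0.05583 (quantile), -0.01768 (median centring), -0.132 (array weights), -0.02056 (without 484 and 469) and -0.04789 (A_72_P440801). IHH for the sow was -0.03444 (authors' values) and -0.02743 (quantile), and for MS minus LW at day 110 it was -0.01504 without fetus 632, alone or with 450. Of the pairs, IHH with PTCH1 had r = -0.08867 (slide means removed), -0.1137 (without the 2 farthest) and -0.09261 (without 632 and 450). IHH with GLI1-like, -0.05 as reported, was -0.3157 (without the 2 farthest), -0.3602 (without 632 and 450), 0.2055 (quantile) and 0.191 (authors' values). Others kept their sign and lost their call. PTCH1 with BMP4 was 0.1767 (without the 2 farthest) and 0.03834 (without 632 and 450), and GLI1-like with BMP4 was 0.2651 (without 632 and 450). The cause of these shifts was not tested.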
